A study of Mus musculus with 18 samples.

Results

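The mRNAs described here are those of the mitochondrial ribosomal proteins, taken as every gene in the deposited count table whose symbol starts with Mrpl or Mrps followed by a digit. The rule used the symbols only, and it found 77 members among 13973 genes, all of which had enough counts to be tested. The study asked which mRNAs keep ribosomes when new initiation is blocked in brain slices, with and without FMRP, an RNA-binding protein that Fmr1 encodes. All mice were male C57BL/6N, aged postnatal day 28 to 35, and the tissue was slices of hippocampus and cortex kept for 30 min at 30 °C. The groups were Fmr1 KO slices in 20 µM homoharringtonine (HHT), WT slices in 20 µM HHT, KO slices in DMSO vehicle and WT slices in DMSO vehicle. Each group gave an input library (cleared lysate), a medium polysome library and a heavy polysome library per lysate, 18 libraries in all. HHT groups held 2 replicates and vehicle groups 1 library, and each replicate pooled 10 slices from 2 to 3 mice.

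Mitochondria translate the few mRNAs of their own genome on a ribosome of their own. Its RNAs come from the mitochondrial genome, but every protein of it is encoded in the nucleus, translated on cytosolic ribosomes and imported. Neurons depend on this ribosome because it makes core subunits of the respiratory chain and of ATP synthase. HHT holds a cytosolic ribosome that has just started while ribosomes further along finish and leave. An mRNA found in polysomes after treatment is therefore taken to carry ribosomes that had not run off. Values below are relative to the rest of each library, so a lower one need not be a lower amount of mRNA.

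By known place in the ribosome, 16 members belong to the small subunit and have a bacterial counterpart, and 10 are small subunit proteins found only in mitochondria. Another 30 belong to the large subunit with a bacterial counterpart, and 20 are large subunit proteins without one, among them Mrps30 and Mrps18a, whose symbols were given for the small subunit. Mrps36, the remaining member, is a component of the 2-oxoglutarate dehydrogenase complex in spite of its name. Coding sequences were short, from 195 nt in Mrpl33 to 1326 nt in Mrps30 with a median of 576 nt, against a median of 1422 nt over the 13063 genes with a coding length. Members lay on 17 chromosomes, with 10 on chromosome 11 and 8 on chromosome 17 (GENCODE M21, GRCm38). The exons of 8 members overlap another annotated gene on the same strand, such as Slc5a3 at Mrps6, Urgcp at Mrps24 and Nme3 at Mrps34, so their counts are less certain.

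HHT acts at the start codon, so the bases around it are shown for the members the results turn on. Each window holds 12 bases of leader and 15 coding bases after the start codon, 5′ to 3′ from GENCODE M21 transcripts, with the start codon in capitals.
Mrps31 (chromosome 8): tgtatttacacgATGctccacagaatcccg
Mrps27 (chromosome 13): gtgcgctccaagATGgcggctcccatggtg
Mrps22 (chromosome 9): cgtctggtaatcATGgctgcagtcagaaca
Mrps5 (chromosome 2): tccggctccagcATGgcggcggccgtacgc
Mrpl16 (chromosome 19): acacgcgtggccATGtggaggctgttgacg
Mrps30 (chromosome 13): cggcgggcgaaaATGgcggcggccaggtat
Mrpl37 (chromosome 4): aacggagtcggtATGgccttggcgtccggg
Mrps33 (chromosome 6): actggtgaagaaATGtctccgctttcggag
Mrpl57 (chromosome 14): cgaggaggcaccATGttcctcaccgctgtc
All 77 members start with ATG. An A or G stood 3 bases before the start codon in 73 members, a G right after it in 54, and both in 51. Leaders ran from 16 to 525 nt with a median of 92 nt.

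Around the transcription start, RefSeq windows (GRCm38.p6, 250 bases before the start to 50 after it) were matched for 68 members, with 74 windows in all. The ETS motif CCGGAAG, on either strand, was in 33.8% of member windows, against 8.86% of all 32851 windows. The NRF1 motif (GCGCA, any base, then GCGC) was in 17.6% of member windows against 4.60% of all windows, and the YY1 motif AAGATGGC in 16.2% against 2.75%. At least 1 of the 3 was in 56.8% of member windows, against 14.7% of all windows. NRF1 and the ETS factor GABPA are known activators of nuclear genes for mitochondrial proteins. A match in these letters is a description and not a measured binding site. These percentages include the 50 bases after the start. There AAGATGGC can also be the start codon with its neighbours, as in the Mrps27 window above (leader of 17 nt). How many YY1 matches are of that kind was not counted. The 100 bases before the start are shown for members that the polysome results single out and that hold a motif there, with the motif in capitals, 5′ to 3′ on the gene's strand.
Mrps22 (ETS, GRCm38.p6 chr9:98601680-98601779, minus strand): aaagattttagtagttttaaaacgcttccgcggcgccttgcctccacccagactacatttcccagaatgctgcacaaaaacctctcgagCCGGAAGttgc
Mrps27 (ETS on the reverse strand, GRCm38.p6 chr13:99344686-99344785, plus strand): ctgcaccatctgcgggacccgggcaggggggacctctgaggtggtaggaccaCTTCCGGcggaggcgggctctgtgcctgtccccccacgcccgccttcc
Mrpl57 (NRF1, GRCm38.p6 chr14:57826139-57826238, plus strand): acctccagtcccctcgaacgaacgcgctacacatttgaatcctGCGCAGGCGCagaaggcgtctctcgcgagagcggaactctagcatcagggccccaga
None of the 3 motifs was found in the 250 bases before the start of Mrps31, Mrps5, Mrpl16, Mrpl37, Mrps30, Mrps33, Mrpl46 or Mrpl21. Mrps18c had 1 ETS match there, outside the last 100 bases. By annotation 18 members share their upstream region with a gene on the opposite strand whose start lies within 1000 bp, for example Mrpl49 with Fau (59 bp), Mrpl57 with Ska3 (49 bp) and Mrps12 with Sars2 (172 bp).

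Totals ran from 6226237 to 13834652 estimated counts per library. Fmr1 was at 4.62 to 8.53 CPM (depth-scaled counts, edgeR's CPM with TMM factors) in the 9 KO libraries and at 13.9 to 32.2 CPM in the 9 WT libraries, without overlap. All 7 neuronal markers were measured, and in input their summed rescaled TPM (the per-length table's unit) was 9630 to 10995 in HHT and 10092 to 10230 in vehicle. Astrocyte markers summed to 647 to 834 in HHT input, against 557 to 606 in vehicle input, and 4 endothelial markers to 29.5 to 41.9 against 10.8 to 13.2. Microglia markers summed to 58.4 to 73.1 in HHT input against 38.5 to 57.7 in vehicle input. Hippocampus and cortex markers summed to 442 to 546 against 386 to 404. Oligodendrocyte markers overlapped, at 2993 to 3663 against 2838 to 3021. The 2 measured blood genes summed to 52.6 to 124 in KO HHT input, against 10.3 to 14.2 in WT HHT input. In vehicle input they summed to 69.3 in KO against 18.3 in WT. KO also lay above WT of the same treatment in medium and in heavy polysomes. The part of these differences in the results below was not tested. In such bulk libraries fewer cells of a type and less RNA per cell cannot be told apart.

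In input most members, though not all, had a level above the median of all genes. Per length, their median level over the 6 input libraries was 57.4 rescaled TPM, against 22.2 over all genes. Mrpl20, a large subunit protein with a bacterial counterpart, had the highest mean level at 175 ± 23.6 rescaled TPM, and Mrpl12, counterpart of the bacterial stalk protein L7/L12, followed at 164 ± 27.4 (SD, n = 6 input libraries each). These 2 did not differ beyond their spread. Mrpl1, a large subunit protein, was lowest at 12.7 ± 1.37 rescaled TPM, and Mrpl35 had 13.5 ± 1.40 (SD, n = 6).

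The members' level in input did not separate HHT from vehicle. In HHT input the 77 mRNAs together took 0.167% and 0.228% of KO counts and 0.173% and 0.227% of WT counts, against 0.204% of KO and 0.214% of WT counts in vehicle input. The vehicle shares lay between the HHT replicates, with replicate 2 the higher HHT replicate in both genotypes. By edgeR 0 members passed an adjusted p of 0.05 in either direction, where 12.2% of all genes were higher and 0.215% lower in HHT. Unadjusted, 0 members were under 0.05, and DESeq2 and limma also called 0. The median log2 change was 0.03, from -0.33 to 0.35. With HHT replicate 1 libraries alone 6 members were lower with a median of -0.17, and with replicate 2 alone 0 were called and the median was 0.19. The shares of all genes given above are from the fit with every library and are no background for these counts.

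**Figure D1:**
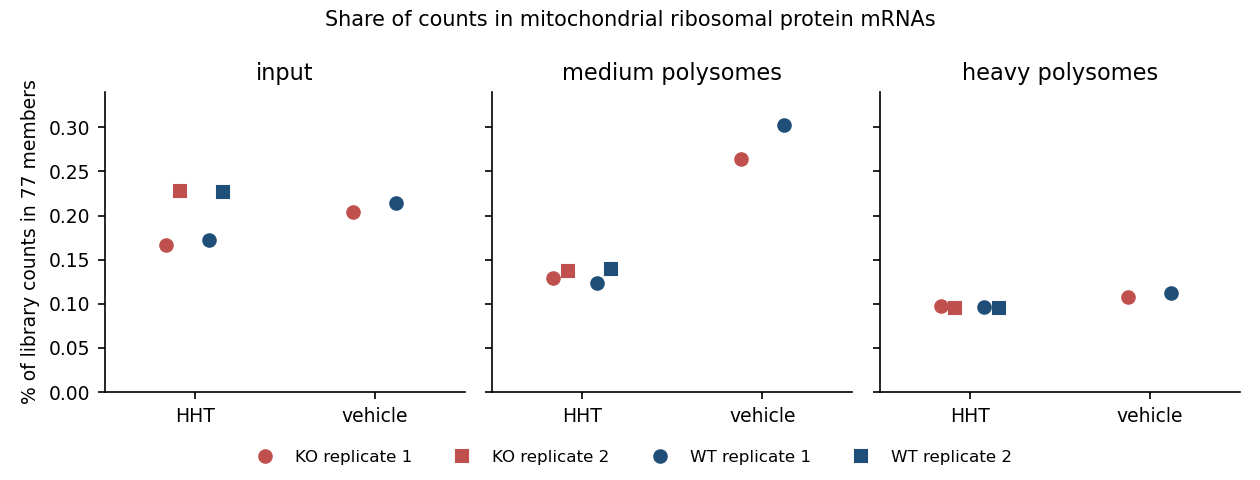
Percent of each library's counts that fell in the 77 members (y axis), with HHT and vehicle libraries on the x axis and 1 panel per fraction; points are single libraries, coloured by genotype and shaped by replicate. In medium polysomes the 4 HHT libraries sit between 0.124% and 0.140%, below both vehicle libraries at 0.264% and 0.303%, while in input the HHT libraries lie on both sides of vehicle.

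In medium polysomes nearly all of these mRNAs were lower under HHT, relative to the rest of the library. The members' share of counts was 0.129% and 0.137% in KO and 0.124% and 0.140% in WT HHT libraries, against 0.264% in KO and 0.303% in WT vehicle libraries. By edgeR 71 of 77 members fell and 0 rose, where 21.5% of all genes fell and 25.4% rose. All 77 log2 changes were negative, with a median of -1.06 (from -1.52 to -0.20), against a median of 0.03 over all genes. In 75 members every HHT library lay below both vehicle libraries, as it did in 31.5% of all genes, and in 0 members every one lay above (33.9% of all genes). The fall covered 15 of 16 small subunit members with a bacterial counterpart (median -1.07) and 8 of 10 without (median -1.0). It covered 28 of 30 large subunit members with a counterpart (median -1.08) and 19 of 20 without (median -1.02), and Mrps36 fell by 1.03 on the log2 scale. Neuronal markers summed to 11683 to 12407 rescaled TPM in HHT medium libraries, against 8868 to 9487 in vehicle, and the 5 astrocyte markers to 821 to 965 against 473 to 534. In the same libraries 4 endothelial markers summed to 21.4 to 29.1 against 9.69 to 10.4, 5 microglia markers to 41.5 to 61.9 against 29.3 to 32.3, and 5 hippocampus and cortex markers to 529 to 604 against 360 to 409.

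The largest fall was that of Mrps33, a small subunit protein found only in mitochondria. It had 18.7 and 20.7 CPM in KO and 17.6 and 15.4 CPM in WT HHT medium libraries, against 47.4 CPM in KO and 56.6 CPM in WT vehicle. All HHT libraries were far below both vehicle libraries, and the log2 change was -1.52 ± 0.18 (SE, edgeR adjusted p = 9.5e-05). Next came Mrps28, a small subunit protein, at -1.49 ± 0.18, and Mrpl21 of the large subunit at -1.48 ± 0.22. Mrps18c of the small subunit was at -1.47 ± 0.29 and Mrpl46 of the large subunit at -1.41 ± 0.19. Mrpl11, which sits at the base of the stalk, had 22.4, 20.3, 19.2 and 20.6 CPM in the KO and WT HHT libraries, against 47 CPM in KO and 51.3 CPM in WT vehicle (log2 change -1.25 ± 0.14).

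Mrpl33, Mrpl55, Mrpl57, Mrps24, Mrps27 and Mrps31 did not pass the test in medium polysomes. Mrpl57 of the large subunit, nearest to 0, had 11.7 and 12.2 CPM in KO and 10.2 and 14.3 CPM in WT HHT libraries, against 12.9 CPM in KO and 15.0 CPM in WT vehicle. Those groups overlapped, and the log2 change was -0.20 ± 0.17 (edgeR adjusted p = 0.36). Mrps27, a small subunit protein with the RNA-binding repeats known as PPR, had 23.8, 26.5, 23 and 27.3 CPM in the KO and WT HHT libraries, against 29.8 CPM in KO and 30.4 CPM in WT vehicle (log2 change -0.26 ± 0.14, adjusted p = 0.15).

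Members of other gene groups also fell in medium polysomes, and whether the groups differ was not tested. Of 78 cytosolic ribosomal proteins 66 fell and 0 rose (median -0.86). Of 77 nuclear-encoded respiratory chain genes 66 fell and 1 rose (median -1.06). Other genes of the members' coding lengths had medians of -0.42 up to 450 nt, -0.38 from 451 to 900 nt and -0.12 above that, against member medians of -1.0, -1.08 and -0.84 in the same ranges. These lists were chosen with results of these data known, and they are given as counts only.

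**Figure D2:**
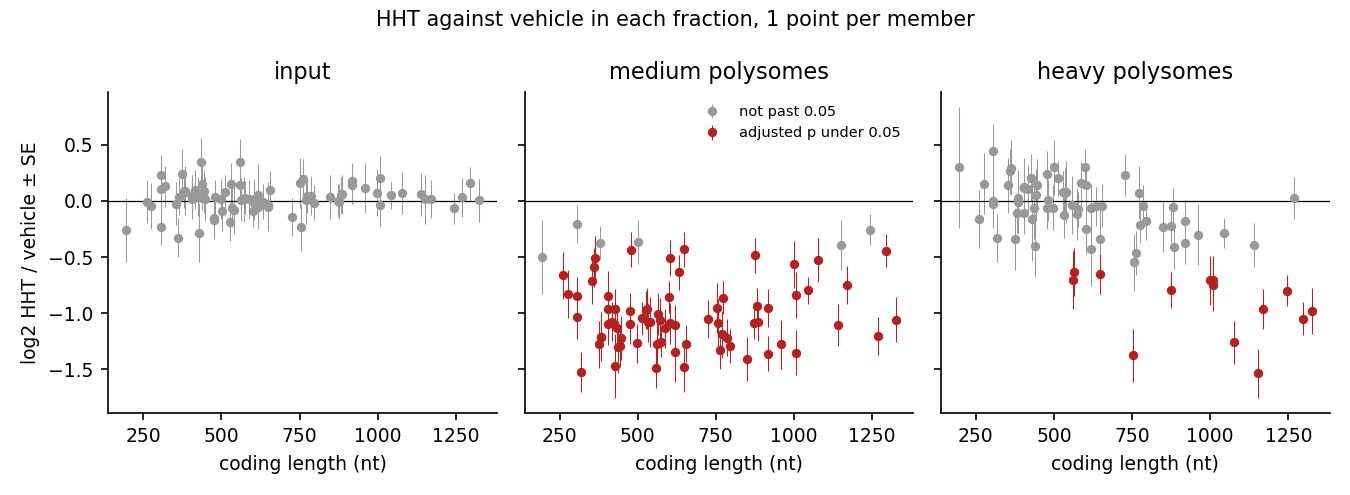
Log2 ratio of HHT to vehicle with its SE (y axis) against coding length in nt (x axis), 1 point per member, in input, medium and heavy polysomes; red points passed an edgeR adjusted p of 0.05 and grey points did not. Medium polysomes show a fall at every length, while in heavy polysomes the red points lie at 561 nt and above.

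In heavy polysomes a smaller set of mostly long members was lower under HHT, and the other 63 did not pass the test. By edgeR 14 of 77 fell and 0 rose, where 24.7% of all genes fell and 27.1% rose. The members' share of counts was 0.0970% and 0.0954% in KO and 0.0968% and 0.0948% in WT HHT libraries, against 0.108% in KO and 0.112% in WT vehicle libraries. The share of members that fell was below the background, and the median log2 change was -0.07 (from -1.54 to 0.44) against 0.06 over all genes. In 24 members all HHT libraries lay below vehicle and in 3 all lay above, against 32.9% and 35.2% of all genes. By limma on log2(rescaled TPM + 1), 11 members fell and 11 rose, with a median of 0.24 over all genes. Oligodendrocyte markers, all 5 measured, summed to 2963 to 3272 rescaled TPM in HHT heavy libraries, against 1619 to 1690 in vehicle, and astrocyte markers to 771 to 1056 against 559 to 560.1. Endothelial markers summed to 12.7 to 24.8 in HHT heavy libraries against 8.24 to 9.90 in vehicle, and hippocampus and cortex markers to 577 to 634 against 432 to 445.

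The 14 were Mrps31, Mrps22, Mrps5, Mrps9 and Mrps27 of the small subunit and Mrpl1, Mrpl16, Mrpl19, Mrpl24, Mrpl32, Mrpl35, Mrpl39, Mrpl44 and Mrps30 of the large subunit. Mrps31, found only in mitochondria, had 10.5 and 11 CPM in KO and 8.54 and 8.68 CPM in WT HHT heavy libraries, against 27.5 CPM in KO and 28.4 CPM in WT vehicle. HHT and vehicle were far apart in both genotypes, with a log2 change of -1.54 ± 0.22 (edgeR adjusted p = 5.6e-05). Its input level was 12.8, 13.9, 11.1 and 19.5 CPM in the KO and WT HHT libraries, against 14.7 CPM in KO and 13.2 CPM in WT vehicle, so the groups overlapped there.

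Mrpl16, the counterpart of a bacterial protein near the aminoacyl-tRNA site, had 10.8 and 9.04 CPM in KO and 8.54 and 9.44 CPM in WT HHT heavy libraries, against 25.6 CPM in KO and 23.4 CPM in WT vehicle (log2 change -1.37 ± 0.23). Mrps22, a small subunit protein found only in mitochondria, had 8.33, 9.66, 9.89 and 13.7 CPM in the KO and WT HHT libraries, against 23.6 CPM in KO and 26 CPM in WT vehicle (-1.26 ± 0.19). Mrps5, whose bacterial counterpart lines the mRNA entry, had 23, 23.3, 22.2 and 21.5 CPM in HHT, against 45.3 CPM in KO and 47.8 CPM in WT vehicle (-1.05 ± 0.15). In each of these 3 the HHT libraries were all below both vehicle libraries. Mrps30, the longest member, was at -0.98 ± 0.21 and Mrps9 at -0.96 ± 0.18.

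By which HHT changes passed the test, the members fall into 4 sets. These sets describe calls only, and a change that did not pass is not shown to be absent. The fall passed in both medium and heavy polysomes for 12 members and in medium alone for 59. It passed in heavy alone for Mrps27 and Mrps31, and in neither for Mrpl33, Mrpl55, Mrpl57 and Mrps24. Even so, every HHT medium library of Mrps27, Mrps31, Mrpl33, Mrpl55 and Mrps24 lay below both vehicle medium libraries. Over all genes 31.5% showed the same separation. Taken singly, 21.5% of all genes fell in medium polysomes and 24.7% in heavy polysomes. How many of all genes fall in each set was not counted, so no set is shown to be particular to the members. The difference between the heavy and the medium change was itself tested, and 50 members differed (36.5% of all genes). For 47 of them the heavy change was the higher one, and for Mrps31 (-1.15 ± 0.31), Mrps5 (-0.61 ± 0.21) and Mrps27 (-0.54 ± 0.20) it was the lower one, where 18.1% of all genes were called higher and 18.4% lower. Mrps31 lost its call without KO HHT replicate 1 (-1.06). Mrps5 lost its call without any 1 of the 4 HHT replicates (-0.64 to -0.57), and Mrps27 without KO replicate 1 (-0.53), KO replicate 2 (-0.56) or WT replicate 2 (-0.46). With total counts Mrps5 (-0.45) and Mrps27 (-0.39) did not pass either, nor did Mrps27 by limma (-0.41).

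**Figure D3:**
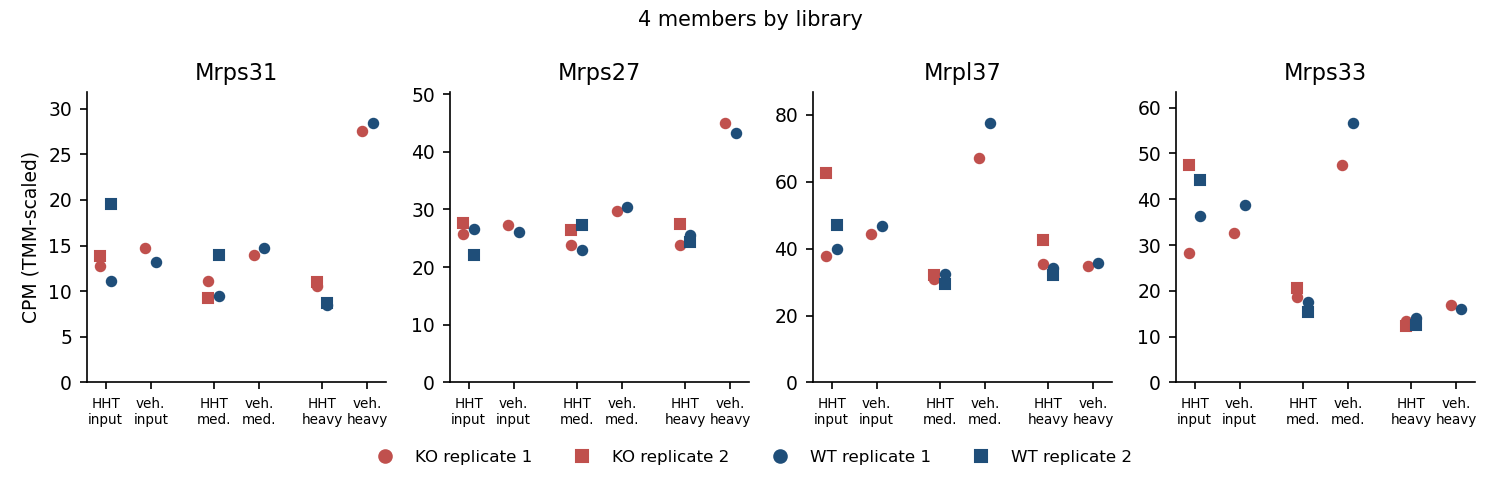
CPM (y axis, linear from 0) of Mrps31, Mrps27, Mrpl37 and Mrps33 in every library, with HHT left of vehicle (veh.) within input, medium (med.) and heavy polysomes; colour is genotype and shape is replicate. Mrps31 and Mrps27 differ in heavy polysomes, where vehicle reaches 28.4 and 45.0 CPM, and Mrpl37 and Mrps33 differ in medium polysomes, where vehicle reaches 77.5 and 56.6 CPM.

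In heavy polysomes the members' change went with coding length. Of 24 members with up to 450 nt of coding sequence 0 fell under HHT (median 0.04). Of 38 with 451 to 900 nt 5 fell (median -0.06), and of 15 longer ones 9 fell (median -0.71). Other genes in these ranges had medians of 0.20, 0.15 and 0.03, and 1.35%, 14% and 29.4% of them fell, beside 24.7% of all genes. Across the 77 members the heavy change had a Spearman rho of -0.62 and a Pearson r of -0.63 with log2 coding length, and across 13063 genes rho was -0.03. In medium polysomes rho was -0.03 across members and 0.47 across all genes. These values describe genes that share the same libraries and are no test.

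Length did not fix the response of single members. Mrpl37 of the large subunit has 1269 coding nt and Mrps27 has 1245. Mrpl37 had 35.3, 42.7, 34.3 and 32.2 CPM in the KO and WT HHT heavy libraries, against 34.9 CPM in KO and 35.8 CPM in WT vehicle (log2 change 0.03 ± 0.19). Mrps27 had 23.8, 27.5, 25.6 and 24.3 CPM in HHT, against 45.0 CPM in KO and 43.2 CPM in WT vehicle (-0.80 ± 0.14, edgeR adjusted p = 0.00026). In medium polysomes the order was turned round, since Mrpl37 had 31, 32.1, 32.5 and 29.6 CPM in HHT, against 67.2 CPM in KO and 77.5 CPM in WT vehicle (-1.20 ± 0.17).

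Vehicle libraries show where these mRNAs sat without the drug. In vehicle slices 22 members were higher in medium polysomes than in input and 1 was lower, where 10.2% of all genes were higher and 9.5% lower, with a median log2 ratio of 0.50 against 0.01 over all genes. Mrpl41, a large subunit protein found only in mitochondria, had 73.5 CPM in KO and 79.7 CPM in WT vehicle medium polysomes, against 37.1 CPM in KO and 38.5 CPM in WT input (1.02 ± 0.19, edgeR adjusted p = 0.0054). Mrpl22, which lines the exit tunnel, was at 0.99 ± 0.31 (not past the threshold with total counts, 0.93, or limma, 0.82), and Mrpl2 and Mrpl3, whose counterparts lie close to the catalytic centre, at 0.95 ± 0.19 and 0.89 ± 0.14. Mrpl52 of the large subunit was the 1 lower member, with 5.82 CPM in KO and 7.79 CPM in WT medium polysomes, against 11.4 CPM in KO and 10.8 CPM in WT input (-0.72 ± 0.21). DESeq2 put it at -0.70 and gave it no adjusted p. Of the cytosolic ribosomal proteins 0 were higher in vehicle medium polysomes than in input and 27 lower (median -0.50), and of the respiratory chain genes 18 were higher and 5 lower (median 0.28).

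Heavy polysomes of vehicle slices held less of most members than input did. By edgeR 51 were lower and 4 higher, where 21.7% of all genes were lower and 24.8% higher, with a median log2 ratio of -0.75 against -0.02 over all genes. The lowest was Mrpl33, the shortest member, with 1.32 CPM in KO and 1.48 CPM in WT heavy polysomes, against 5.67 CPM in KO and 8.27 CPM in WT input (-2.28 ± 0.47). Mrpl52 followed at -1.68 ± 0.24, Mrps21 of the small subunit at -1.48 ± 0.26, Mrps24 of the small subunit at -1.44 ± 0.25 and Mrpl20 at -1.43 ± 0.25. The 4 higher members were Mrps31 (1.00 ± 0.25), Mrps27 (0.72 ± 0.16), Mrps5 (0.67 ± 0.17) and Mrps22 (0.64 ± 0.22), all of the small subunit and all among the 14 that fell in heavy polysomes under HHT. The 2 comparisons share the vehicle heavy libraries. With total counts in place of TMM none of these 4 passed (0.61, 0.33, 0.28 and 0.26), in a scaling that moved the median of all genes to -0.41. Mrps22 did not pass by limma either (0.37).

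By length, 23 of the 24 short members were lower in vehicle heavy polysomes than in input (median -1.12), 27 of the 38 intermediate ones (median -0.70) and 1 of the 15 long ones, 4 of which were higher (median 0.07). Spearman's rho of the log2 heavy to input ratio with coding length was 0.81 across members and 0.60 across all genes, as a description. Other genes had medians of -1.05, -0.55 and -0.13 in the same ranges, so low ratios of short mRNAs were not particular to the members. Over all genes, of any length, 21.7% were lower and 24.8% higher.

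**Figure D4:**
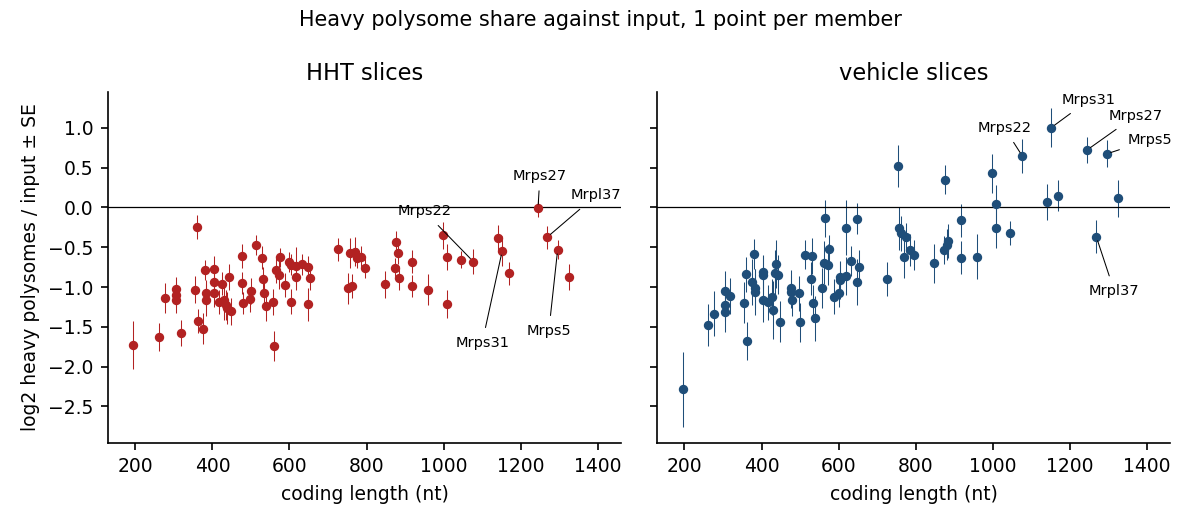
Log2 ratio of heavy polysomes to input with its SE (y axis) against coding length in nt (x axis), 1 point per member, in HHT slices and in vehicle slices. In vehicle slices the ratio climbs with length to 1.00 at Mrps31, while in HHT slices all points lie below 0, Mrps27 being nearest to it at -0.01.

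Under HHT most members were lower in polysomes than in input. In heavy polysomes 73 were lower than in input and 0 higher, where 30.4% of all genes were lower and 27.6% higher (median -0.89 against -0.04). Mrpl38, Mrpl44, Mrps17 and Mrps27 did not pass, and the largest difference was that of Mrpl32, a large subunit protein, at -1.74 ± 0.19. In HHT medium polysomes 57 were lower than in input and 0 higher by the test, with 5 of 77 log2 ratios positive, where 17% of all genes were lower and 13.4% higher (median -0.58), and Mrpl52 was lowest at -1.26 ± 0.15. That count was 18 without KO HHT replicate 2 and 22 without WT HHT replicate 2, with 0 higher in both cases, while the count of lower genes over all 13973 was 770 and 951 in those settings, against 2379 with every library. Between the 2 polysome fractions 22 members were lower in heavy than in medium under HHT and 0 higher (16.8% and 19.0% of all genes, median -0.31). Leaving out HHT replicate 2 gave 10 (KO) and 9 (WT) members, with 937 and 992 of all genes against 2354 with every library, and total counts gave 47 members. In vehicle slices 66 were lower in heavy than in medium and 3 higher (28.1% and 25.9% of all genes, median -1.23), the 3 being Mrps31 (0.96), Mrps22 (0.67) and Mrps27 (0.55). With total counts none of these 3 passed (0.63, 0.34 and 0.22), with the median of all genes at -0.42.

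The HHT shift of a polysome to input ratio was also tested, between group means. The medium to input ratio was lower under HHT in 54 members and higher in 0 (10.2% and 7.09% of all genes, median -1.07), with 30 lower without KO HHT replicate 2, where the count over all genes was 565 against 1425 with every library. The heavy to input ratio was lower in 10 and higher in 0 (16.3% and 12.6% of all genes, median -0.13). Mrps31 (-1.55 ± 0.31), Mrpl16 (-1.53 ± 0.33), Mrps22 (-1.32 ± 0.27) and Mrps5 (-1.20 ± 0.21) led that list. With HHT replicate 1 libraries alone 12 were lower and 4 higher, and with replicate 2 alone 20 were lower and 0 higher. Limma called 5 lower and 7 higher, and total counts gave 7 lower and 1 higher, with medians over all genes of 0.31 and 0.16 in those last settings. For these alternatives the shares of all genes above, from the main fit, are no background.

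KO and WT slices under HHT gave 0 members past an adjusted p of 0.05 by edgeR in input, medium and heavy polysomes, and 0.0% of all genes passed in each. DESeq2 and limma called 0 members as well. Unadjusted, 2 members were under 0.05 by edgeR in input, 2 in medium and 1 in heavy. Among 77 members, a threshold of 0.05 would give no fewer without any difference. Median log2 KO to WT ratios were 0.05, 0.06 and 0.04 in input, medium and heavy, with a median SE of 0.20, 0.22 and 0.24 per member, so small differences were not detectable with 2 libraries a side. The input median was 0.27 without KO HHT replicate 1 and -0.23 without KO HHT replicate 2.

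The smallest unadjusted p was that of Mrps28 in medium polysomes. It had 2.66 and 2.27 CPM in KO HHT libraries, against 4.14 and 5.12 CPM in WT HHT libraries. Both KO libraries lay below both WT libraries, with a log2 ratio of -0.92 ± 0.23 and an edgeR adjusted p of 0.999. Mrpl36 of the large subunit had 11.6 and 13.4 CPM in KO and 7.76 and 8.91 CPM in WT HHT medium polysomes (0.59 ± 0.21), and 9.03 and 7.09 CPM in KO against 5.84 and 4.23 CPM in WT HHT heavy polysomes (0.69 ± 0.25). KO lay above WT in both fractions without overlap, and neither difference passed. With 2 libraries a side such separation can easily arise without a genotype difference, and its share over all genes was not counted. In input Mrpl52 was at -0.41 ± 0.19 and Mrps16 of the small subunit at 0.46 ± 0.21.

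**Figure D5:**
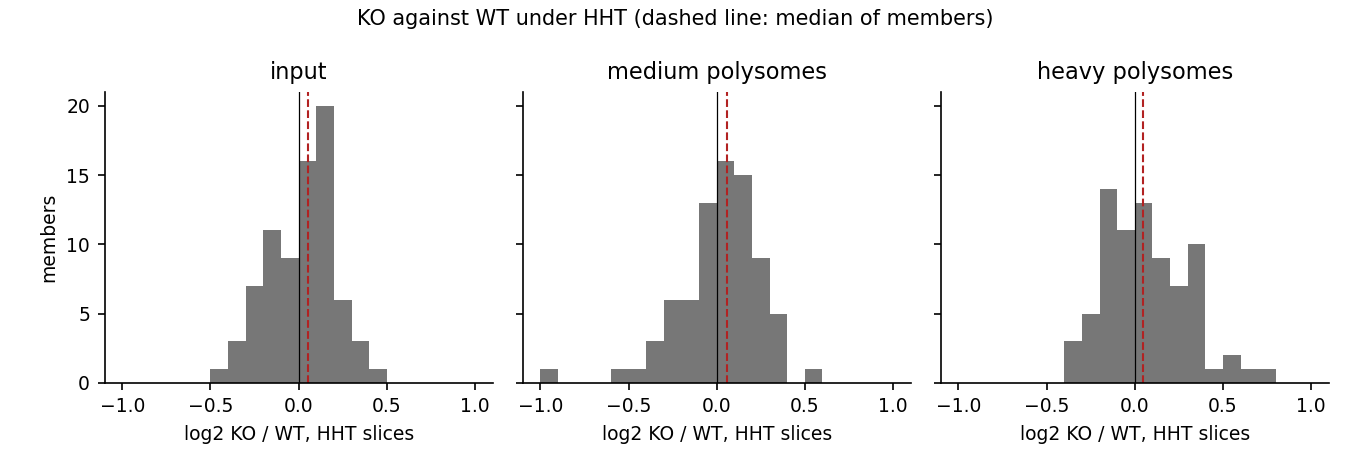
Number of members (y axis) by log2 ratio of KO to WT in HHT slices (x axis, bins of 0.1), for input, medium and heavy polysomes; the solid line is 0 and the dashed line the median. The medians are 0.05, 0.06 and 0.04, and Mrps28 in medium polysomes is the point at -0.92.

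Whether HHT acted differently in KO and WT was tested as an interaction, with 1 vehicle library per genotype. By edgeR 0 members and 0.0% of all genes passed in any fraction, and DESeq2 and limma called 0 members. Unadjusted, 1 member was under 0.05, Mrpl36 in medium polysomes (0.79 ± 0.35), no more than that threshold would give among 77 members without any difference. In medium polysomes 63 of 77 interaction values were positive, with a median of 0.23 against -0.02 over all genes. The vehicle medium libraries each stood alone there, the members' share of counts being 0.264% in KO and 0.303% in WT.

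Outside the rule, 40 of 44 listed genes for other mitochondrial ribosome proteins and for mitochondrial translation and ribosome assembly were measured. Apart from Gfm1 and Ddx28, which had the smallest adjusted p in heavy polysomes, those named here were chosen after their values were seen. In medium polysomes 20 fell and 2 rose under HHT (median -0.57), where 21.5% of all genes fell and 25.4% rose. In heavy polysomes 17 fell and 0 rose (median -0.40), where 24.7% of all genes fell and 27.1% rose. Gadd45gip1, a large subunit protein without an Mrp symbol, fell most in medium polysomes (-1.57 ± 0.17), and Malsu1, an assembly factor of the large subunit, followed (-1.44 ± 0.24). Dap3 and Ptcd3, both proteins of the small subunit, fell by 0.92 ± 0.12 and 1.13 ± 0.14 on the log2 scale in heavy polysomes. So did Ddx28, a helicase of large subunit assembly (-1.57 ± 0.17), and the elongation factors Gfm1 (-1.35 ± 0.12) and Tufm (-1.26 ± 0.14). In medium polysomes Gfm1 rose (0.33 ± 0.13), as did Lrpprc, which stabilises mitochondrial mRNAs (0.74 ± 0.16).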

How the data were processed

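Per the labels' protocols, slices were homogenised without detergent, cleared, and run on sucrose gradients, and the FMRP immunoblot signal decided which gradient fractions were pooled as medium and heavy. Libraries came from a directional kit. Tools named, with no role, per the submitters' processing notes are DESeq2 1.16.1, RSEM 1.2.11, Bowtie2 2.1.0 and Trimmomatic 0.32, and the build is mm10. The authors deposited a table of estimated counts (0 of 251514 values whole within 1e-06) and a per-length score they call TPM. Of its 18 columns 10 sum to more than TPM can, so this deposited score is called rescaled TPM and is used for levels between genes. Why no count is whole, and any adjustment before deposit, are not given in the sources used here. The lowest rescaled TPM in a library was 0.772 to 0.904 in the HHT replicate 2 libraries and 1.00 to 1.04 in all others. Whether replicate 2 was a separate batch is not in the labels. Absolute RNA amounts per fraction were not given in the sources used here.

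Counts were rounded and fitted with edgeR 4.0.16 under R 4.3.3 (TMM scaling, quasi-likelihood F-test, and a low-count filter that kept all 13973 genes) as 12 group means over 18 libraries, with 6 residual degrees of freedom. Since vehicle groups hold 1 library, the spread comes from the HHT groups and is taken to hold for vehicle. P-values are 2-sided and Benjamini-Hochberg adjusted over all genes in each of 18 comparisons at 0.05, and changes are log2 ± SE. HHT against vehicle averages the genotypes. The steps were tested on simulated data, for HHT against vehicle in heavy polysomes only, with 200 changed genes. They recovered 89% of log2 changes of 1 and 100% of changes of 2, with 11 false calls. Every simulated library had the same mean profile and a single spread setting (dispersion 0.02). The simulation therefore does not cover differences between fractions, lysates or replicates. Totals limit the precision: a member at 2 CPM holds few reads. Replicates are separate slice pools.

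Members, lists, tests and alternatives (DESeq2 1.42.0, limma 3.58.1 with a pseudocount of 1, no filter, total counts, RLE factors, leaving out HHT replicates in turn, HHT replicates alone, blocks) were chosen with earlier results of these data known. Named members are the 5 largest rises and falls per comparison that passed, the smallest p where none did, the highest and lowest levels, and members against the direction of the rest or nearest the median. Mrpl37, Mrps9 and Mrpl57 were also named after their values were seen. Input, medium and heavy of 1 replicate share a lysate per the labels, and HHT deviations within a lysate correlated at 0.264 and 0.408 for medium with input, at 0.0781 and 0.0739 for heavy with input, and at 0.0367 and 0.0965 for heavy with medium (KO and WT). Coding lengths came from GENCODE M21 without the stop codon, in place of protein lengths.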

Additional observations from a re-analysis of the deposited data

Results flagged for a closer look

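The HHT change differed between heavy and medium polysomes in 50 of the 77 members, by a test of the difference itself (edgeR, adjusted p under 0.05). The heavy change was the higher of the pair in 47 and the lower in Mrps31, Mrps5 and Mrps27. Over all genes 36.5% differed. The reason was not tested.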

How the results depend on the processing

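Of the member counts under alternatives, 169 stayed within 1.5 times the main count and in its direction, 10 moved and 1 turned its direction. The 169 include comparisons with 0 members called in both settings, such as KO against WT. Those that moved were HHT against vehicle in input with HHT replicate 1 alone (6 members) and in heavy polysomes with limma (22, of which 11 higher), heavy against medium in HHT slices with total counts (47), and the HHT shift of heavy to input with replicate 1 alone (16), replicate 2 alone (20) and limma, which turned its direction (12, of which 7 higher). Leaving out 1 HHT replicate gave 18 to 50 members for medium against input in HHT slices, 9 to 18 for heavy against medium in HHT slices and 30 to 53 for the HHT shift of medium to input. The cause was not tested. Of the values of named members 728 kept direction and call, 37 lost the call and 1 turned, Mrpl11 in heavy polysomes with limma (0.16). With the lysate as a replicate block 33 members were called in medium against input of vehicle slices (23 without it), 57 in heavy against input, and no count moved by over 1.5 times. With replicate number as a block for KO against WT under HHT, 0 members were called in each fraction. Same-numbered KO and WT libraries correlated in their deviations at 0.375, 0.228 and 0.0495 in input, medium and heavy polysomes, and with 2 pairs they were not taken as paired. Total counts moved the median of all genes by over 0.1 in 8 of 18 comparisons, to -0.41 in heavy against input and -0.42 in heavy against medium of vehicle slices, and limma in 6, to 0.31 in the HHT shift of heavy to input. Each vehicle group holds 1 library, which limits every comparison with vehicle.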
